A study of Oncorhynchus mykiss with 24 samples.

Results

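The secretory pathway ESTs of the trout array are the cDNA spots whose descriptions name a coatomer subunit, a Sec protein of the protein transport group, an ADP-ribosylation factor, a transmembrane emp24 protein, a cornichon, a signal peptidase subunit or a signal recognition particle protein. This search found 115 of 16028 ESTs, with 12 for the signal recognition particle and its receptor, 18 for Sec proteins, 9 for signal peptidase, 13 for emp24 proteins, 3 for cornichons, 23 for coatomer and 37 for ADP-ribosylation factors and the proteins that bind or resemble them. The RNA came from 48 whole rainbow trout (Oncorhynchus mykiss) embryos hybridized in pairs to 24 arrays, with 1 embryo in each dye. All embryos came from a repeated backcross, in which an XY male heterozygous at a major development rate QTL was crossed to a female of the slow developing Oregon State University (OSU) clonal line. The groups held 4 embryos of each sex and QTL genotype at 15, 19 and 28 days post fertilization (dpf), raised at 11 °C. OSU/CW embryos carried the fast allele of the Clearwater (CW) clonal line, and OSU/OSU embryos carried slow alleles only. Sex was assigned by genotyping. Each array paired both genotypes of 1 sex and 1 time point, so that genotypes were compared within arrays, and sexes and time points between arrays. Differences between these whole embryos can come from more cells of a type or from more RNA per cell, and arrays cannot tell these apart.

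Proteins that leave a cell or sit in its membranes enter the endoplasmic reticulum first. The signal recognition particle binds the signal peptide as it emerges from the ribosome and docks at a receptor, the Sec61 channel lets the chain through, and signal peptidase cuts the signal off. Cargo leaves in vesicles coated by COPII, whose Sec24 subunit binds cargo directly or through receptors such as cornichons and the p24 (emp24) proteins. The COPI coat, built of coatomer and recruited by ADP-ribosylation factors (ARFs), returns receptors and escaped proteins from the Golgi. These parts serve all cells, and secretory cells such as those that lay down collagen need many of them.

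Of the 115 ESTs, 78 could be tested and 37 could not. In 33 of the 37 the signal passed the 90th percentile of the negative control spots in fewer than 16 of 48 channels, and 4 brighter ones (20 to 40 channels) had too many spots marked as poor. The tested ones were 8 of the signal recognition particle, 14 Sec ESTs, 8 of signal peptidase, 7 emp24 ESTs, 2 cornichons, 15 coatomer ESTs and 24 of the ARF group. No EST was tested for coatomer gamma-2 (3 ESTs), coatomer beta' (1 EST), the receptor's beta subunit, ARF3 or the description "Cornichon homolog" without a number. Values below are normalized log2 intensities, and a difference of 1 on this scale is a doubling. An EST was called when its adjusted p over all 11439 tested features was under 0.05. The median signal of a channel was 1.18 to 1.83 times its local background at 15 dpf. This was 1.20 to 3.07 times at 19 dpf and 1.75 to 4.83 times at 28 dpf. The median signal before background correction leaned the other way, at 2638 to 14634 at 15 dpf and 1061 to 5492 at 28 dpf. Every comparison of time points thus also compared arrays of different signal and background. EST spots above the controls numbered 4880 to 11859 per channel at 15 dpf and 6946 to 14412 at 28 dpf. Counts of embryos above the controls at different ages therefore also compared arrays that differed in this. The part of these differences in the time results was not tested.

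From 15 to 28 dpf, 12 of the 78 ESTs rose and 13 fell. That is 32.1% of those tested, while 37.9% of all features were called (19.3% higher and 18.6% lower). The largest rises were those of an emp24 protein 3 EST, at 2.90-fold, and of Sec24C, at 2.28-fold. The largest falls were those of ARF-like protein 9, at 2.49-fold, and of a cornichon homolog 4 EST, at 2.34-fold. The median difference of the 78 ESTs was -0.02, against 0.02 for all features. All 5 calls in the ARF group were falls, 3 of 4 calls in the signal recognition particle and 3 of 4 among Sec proteins were rises, and the calls for coatomer and emp24 proteins were split 2 and 2.

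**Figure D1:**
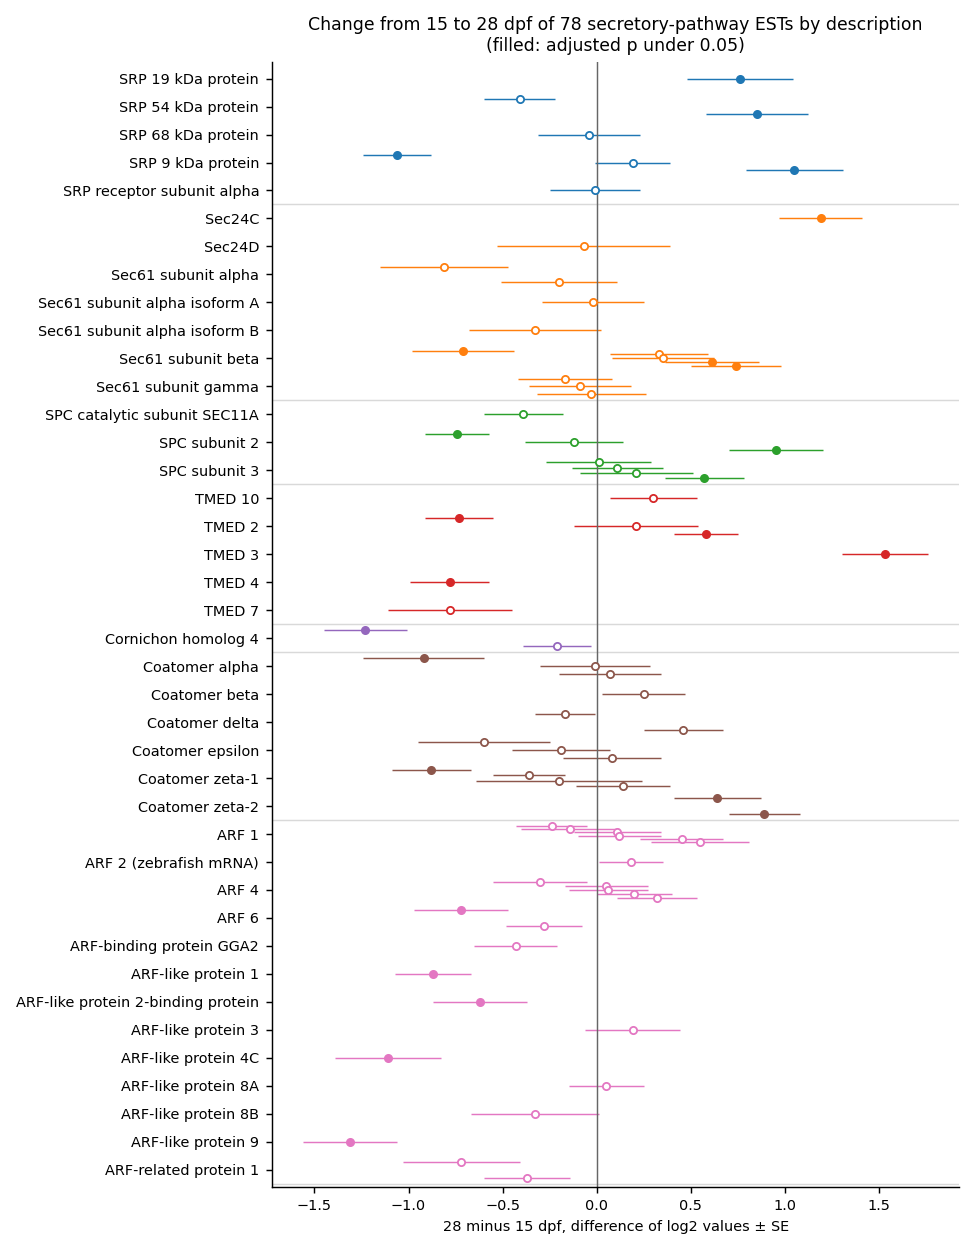
Difference between 28 and 15 dpf (x axis, log2 scale, with its standard error) for each of the 78 tested ESTs, placed by description on the y axis and coloured by family. Filled points passed an adjusted p of 0.05 (12 higher, 13 lower), and several descriptions, such as the 9 kDa signal recognition particle protein, have filled points on both sides of 0.

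For targeting to the endoplasmic reticulum, the arrays measured RNA of signal recognition particle proteins. The 54 kDa protein is the GTPase that binds the signal peptide. Its EST CK990854 ranged from 9.67 (median 10.96) to 12.32 at 15 dpf and from 11.39 (median 12.04) to 12.69 at 28 dpf. The ranges overlapped, and the model's difference was 0.85 ± 0.27 (SE; adjusted p = 0.0129). The 19 kDa protein, which helps the 54 kDa protein onto the RNA of the particle, rose by 0.76 ± 0.28 (CB494336, adjusted p = 0.0318), but its signal passed the controls in 4 of 16 embryos at 15 dpf and in 8 of 14 at 28 dpf. The call was lost without background subtraction (0.07), with rebuilt centred values (0.66) and without any of 6 arrays. A second 54 kDa EST, CA059612, had a difference of -0.41 ± 0.19 and was not called (adjusted p = 0.0815). The receptor's alpha subunit differed by -0.01 ± 0.24 between 28 and 15 dpf.

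The 9 kDa protein, part of the domain that pauses translation, had 3 tested ESTs that did not move together. CA042949 ran from 11.82 (median 12.35) to 13.28 at 15 dpf, from 11.34 (median 12.01) to 13.00 at 19 dpf and from 10.70 (median 11.40) to 11.89 at 28 dpf. CB496732 ran from 9.24 (median 11.22) to 12.27 at 15 dpf, from 10.49 (median 11.35) to 12.60 at 19 dpf and from 11.46 (median 12.20) to 12.85 at 28 dpf. The first thus lost nearly as much as the other gained. CA042949 fell by 1.06 ± 0.18 (adjusted p = 1.39e-05) and CB496732 rose by 1.05 ± 0.26 (adjusted p = 0.00157) from 15 to 28 dpf, and both were also called between 19 and 28 dpf, at -0.69 ± 0.18 and 0.73 ± 0.26. CB491385, the remaining EST, differed by 0.19 ± 0.20 between 15 and 28 dpf (adjusted p = 0.474).

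The Sec61 channel has a pore-forming alpha subunit and small beta and gamma subunits. All 4 alpha and all 3 gamma ESTs had negative differences between 28 and 15 dpf, of -0.81 to -0.02, and none was called. Of the 5 beta ESTs, 2 rose and 1 fell. CA044589 was at 9.67 to 12.08 (median 11.00) at 15 dpf and at 10.85 to 12.63 (median 11.59) at 28 dpf, a rise of 0.74 ± 0.24 (adjusted p = 0.0147). This call was lost with poor spots kept (0.53, adjusted p = 0.0994) and without the dye term (0.74, adjusted p = 0.0598). It was also lost without female replicate 14 of 15 dpf (0.53) and with loess only (-0.10). CB496749 rose by 0.61 ± 0.25 (adjusted p = 0.0483). CA055988 was at 11.54 to 12.91 (median 12.35) at 15 dpf and at 9.45 to 12.34 (median 12.04) at 28 dpf, and fell by 0.71 ± 0.27 (adjusted p = 0.033). Its lower tail at 28 dpf held 2 female embryos under 11, both on female replicate 36. Its call was lost when any of 7 arrays was left out, and without that array the difference was -0.38. The call of CB496749 was lost without any of 14 arrays.

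Signal peptidase showed the same split at subunit 2, a membrane subunit beside the catalytic one. CA063846, bright in all 48 embryos, ran from 12.08 (median 12.70) to 13.89 at 15 dpf and from 11.67 (median 12.04) to 12.61 at 28 dpf. CB499814 passed the controls in 1 of 16 embryos at 15 dpf, at 8.82 to 10.89 (median 10.09), and in 9 of 12 at 28 dpf, at 10.31 to 11.94 (median 10.74). One EST therefore went down within its bright range while the other came up from near background. The fall was 0.74 ± 0.17 (adjusted p = 0.000893) and the rise 0.95 ± 0.25 (adjusted p = 0.00309). The size of this rise rests on 15 dpf values near background, and it was 0.45 without background subtraction, 1.55 with rebuilt centred values and 0.41, not called, with loess only. The remaining subunit 2 EST, CA045221, differed by -0.12 ± 0.26. Subunit 3, which the complex needs for cutting, had 1 of 4 tested ESTs called, CB497868, at 0.57 ± 0.21 (adjusted p = 0.0281). The catalytic subunit SEC11A differed by -0.39 ± 0.21 and was not called (adjusted p = 0.15).

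**Figure D2:**
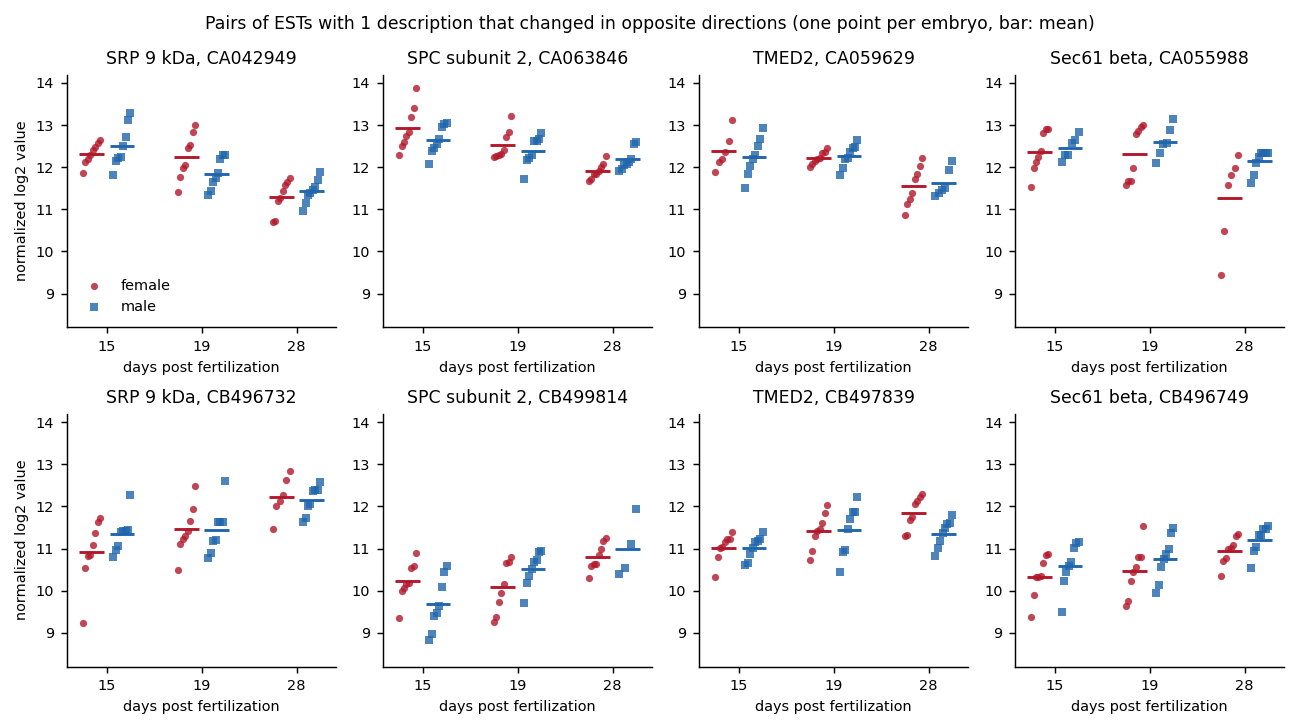
Normalized log2 values (y axis) of each embryo at 15, 19 and 28 dpf (x axis), females as red circles and males as blue squares with a bar at each mean, for 4 pairs of ESTs with the same description. The upper EST of each pair fell and the lower rose between 15 and 28 dpf, by 0.58 to 1.06 in size.

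Such pairs occurred in 4 descriptions, those of the 9 kDa protein, signal peptidase subunit 2, Sec61 beta and emp24 protein 2. ESTs of 1 description were paired in 77 ways over 18 descriptions, of which 5 pairs had calls in opposite directions between 15 and 28 dpf and 2 had calls in the same direction. Over the embryos, the Pearson correlation of such pairs had a median of 0.10 (-0.53 to 0.74), against 0.01 for 2926 pairs of different descriptions. The lowest belonged to the 9 kDa pair (-0.53 over 46 embryos) and the highest to the Sec61 gamma ESTs CB497886 and CB509857 (0.74 over 44 embryos). These points share arrays and time points, and the values are given as a description. ESTs of 1 description can be copies of 1 gene, duplicated genes, which salmonids have in great number, or different ends of a transcript, and the files do not say which.

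The direction of the calls also went with the first letters of the EST identifiers. Of 42 tested secretory ESTs whose identifiers begin with CA, 2 rose and 9 fell from 15 to 28 dpf, whereas of 36 that begin with CB or CK, 10 rose and 4 fell. The same lean was present over the whole array, where 13.6% of the 5881 CA features rose and 23.9% fell, and 25.5% of the 5398 CB and CK features rose and 12.4% fell. In 4 of the 5 opposite pairs the falling EST was a CA and the rising one a CB identifier, and in the fifth both were CA. The sources used here do not say what the prefixes stand for on this array, and their part in the time results was not tested. Direction went with brightness at 15 dpf as well. The called risers had means of 9.37 (CB494336) to 11.29 (CB497868) at that age. The called fallers had means of 11.30 (CB511963) to 12.79 (CA063846), apart from CB499604 at 10.92. In all 5 opposite pairs the falling EST was the brighter one at 15 dpf. The 15 dpf value is itself part of each difference, and the part of brightness was not tested.

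The emp24 family, whose p24 proteins carry cargo between the endoplasmic reticulum and the Golgi, held the EST with the smallest p. The emp24 protein 3 EST CB496796 ranged from 9.54 (median 10.72) to 11.64 at 15 dpf, from 10.57 (median 12) to 12.61 at 19 dpf and from 11.28 (median 12.21) to 12.72 at 28 dpf. Most of this rise thus came before 19 dpf. It rose by 1.18 ± 0.23 from 15 to 19 dpf (adjusted p = 0.00123) and by 1.53 ± 0.23 from 15 to 28 dpf (adjusted p = 2.19e-06). The signal passed the controls in 8, 13 and 16 of 16 embryos at 15, 19 and 28 dpf, so the start of the rise was in part near background. Under the alternatives that tested this EST, the difference between 15 and 28 dpf was 0.75 to 1.84 and stayed called. CB496796 was the only one of the 78 ESTs called between 15 and 19 dpf (1.28%), where 2.74% of all features were called (2.44% higher). Its difference between 19 and 28 dpf was 0.36 ± 0.23 (adjusted p = 0.313).

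Other emp24 ESTs went down. The emp24 protein 4 EST CB495063 was at 10.65 to 12.19 (median 11.52) at 15 dpf and at 10.11 to 11.39 (median 10.69) at 28 dpf, a fall of 0.78 ± 0.21 (adjusted p = 0.00334). For emp24 protein 2, a member of the same heteromeric complexes, CA059629 was at 11.50 to 13.11 (median 12.25) at 15 dpf and at 10.86 to 12.23 (median 11.49) at 28 dpf, whereas CB497839 was at 10.32 to 11.40 (median 11.10) and then at 10.82 to 12.29 (median 11.59). The first fell by 0.73 ± 0.18 (adjusted p = 0.00185), and the second rose by 0.58 ± 0.17 (adjusted p = 0.00712). The emp24 protein 7 EST CA059769 had a difference of -0.78 ± 0.33 and was not called (adjusted p = 0.0603). Emp24 protein 10 had 5 ESTs on the array, of which 1 could be tested (0.30 ± 0.23).

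Sec24C, a cargo-binding subunit of the COPII coat, changed late. CK991191 was at 9.72 to 11.47 (median 10.34) at 15 dpf, at 9.42 to 11.50 (median 10.57) at 19 dpf and at 10.55 to 12.58 (median 11.70) at 28 dpf. Its signal passed the controls in 6, 8 and 16 of 16 embryos. The rise was 1.19 ± 0.22 from 15 to 28 dpf (adjusted p = 5.19e-05) and 0.97 ± 0.22 from 19 to 28 dpf (adjusted p = 0.002). Sec24D, its close relative, was measured by CA056617 and differed by -0.07 ± 0.46, the largest error among the 78 ESTs for this comparison.

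The COPI coat had calls at its smallest subunit, zeta, in both directions by paralog name. Both zeta-2 ESTs rose in the main model. CB496435 was at 9.82 to 11.29 (median 10.47) at 15 dpf, at 10.42 to 11.89 (median 11.01) at 19 dpf and at 9.97 to 12.38 (median 11.41) at 28 dpf, a rise of 0.89 ± 0.19 from 15 to 28 dpf (adjusted p = 0.000336), with signal above the controls in 2, 10 and 15 of 16 embryos. CA051933 rose by 0.64 ± 0.23 (adjusted p = 0.0289), but it was at 0.11 without background subtraction and 0.07 with loess only, not called in either, and its call was lost without any of 5 arrays. Of the 4 zeta-1 ESTs, CB511963 fell. It was at 10.33 to 12.04 (median 11.28) at 15 dpf, at 10.05 to 12.44 (median 11.29) at 19 dpf and at 9.61 to 11.07 (median 10.48) at 28 dpf, so its change lay after 19 dpf, at -0.92 ± 0.21 (adjusted p = 0.00169). A second zeta-1 EST, CA057552, fell by 0.57 ± 0.19 over the same days (adjusted p = 0.029). The other zeta-1 ESTs, CA055018 and CB511157, differed by 0.14 ± 0.25 and -0.20 ± 0.44 between 15 and 28 dpf.

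**Figure D3:**
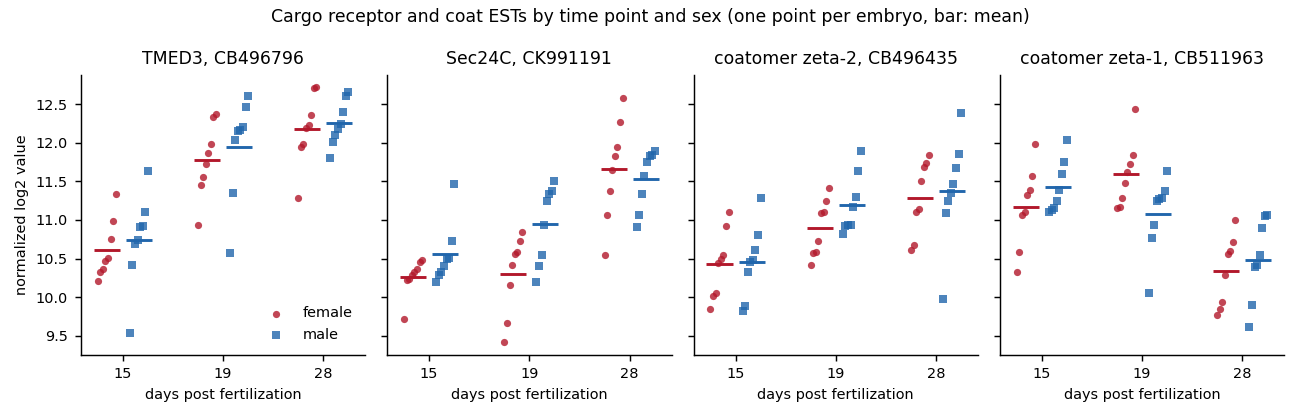
Normalized log2 values (y axis) of each embryo at 15, 19 and 28 dpf (x axis) for emp24 protein 3 (TMED3), Sec24C, coatomer zeta-2 and coatomer zeta-1, females as red circles and males as blue squares with a bar at each mean. TMED3 stood higher from 19 dpf on (median 12 against 10.72 at 15 dpf), Sec24C only at 28 dpf (median 11.70), and the zeta-1 EST was lower at 28 dpf (median 10.48).

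Coatomer alpha, the large outer subunit of COPI, had 6 ESTs on the array and 3 that could be tested. CB499604 was at 9.80 to 12.36 (median 10.87) at 15 dpf and at 8.68 to 10.91 (median 10.01) at 28 dpf, a fall of 0.92 ± 0.32 (adjusted p = 0.0195), with signal above the controls in 7 and 5 of 16 embryos. CB498091 differed by 0.07 ± 0.27 and CA768033 by -0.01 ± 0.29. Of the remaining coatomer ESTs, 1 of beta, 2 of delta and 3 of epsilon were tested, with differences of -0.60 to 0.46 and none called. The study also followed a coatomer subunit by quantitative PCR, and its linear model gave no significant effect of sex, age or QTL genotype. The primers are shown because they are the sequences given for this family in the study, although the EST they match is not named.
Coatomer forward primer: atggggcttacaggtcagaa
Coatomer reverse primer: tgttatatcatctctgctccaacg

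The ARFs are small GTPases that recruit coats when they bind GTP. ARF1, ARF4 and the zebrafish-named ARF2, the forms that act at the Golgi, had 12 tested ESTs with differences of -0.30 to 0.55 between 15 and 28 dpf and none called. The ARF1 EST CB500885 rose late, from 10.21 to 12.12 (median 11.49) at 19 dpf to 11.47 to 12.81 (median 12.20) at 28 dpf, by 0.71 ± 0.22 (adjusted p = 0.0241). This call was lost without any of 4 arrays, and the difference was 0.09 with loess only, not called. The 5 falls belonged to other branches. ARF6 works at the plasma membrane, and its EST CA054173 fell by 0.72 ± 0.25 (adjusted p = 0.02). The call was lost without any of 3 arrays, among them female replicate 14 of 15 dpf, without which the fall was 0.45. Meanwhile a second ARF6 EST differed by -0.28 ± 0.20.

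ARF-like proteins and a partner gave the other 4 falls. ARF-like protein 9 (CA050939) was at 11.09 to 12.66 (median 11.99) at 15 dpf, at 10.68 to 12.77 (median 11.65) at 19 dpf and at 9.90 to 11.44 (median 10.82) at 28 dpf. It fell by 1.31 ± 0.25 from 15 to 28 dpf (adjusted p = 7.59e-05) and by 1.0 ± 0.26 from 19 to 28 dpf (adjusted p = 0.00661). ARF-like protein 4C (CB511855) fell by 1.11 ± 0.28, from a median of 12.12 to one of 10.82 (adjusted p = 0.00191). ARF-like protein 1, which recruits golgins to the trans-Golgi, fell by 0.87 ± 0.20 (CA055736, adjusted p = 0.000958), of which 0.66 ± 0.20 lay after 19 dpf. The binding partner of ARF-like protein 2 fell by 0.62 ± 0.25 (CA045957, adjusted p = 0.0481), a call that was lost without any of 13 arrays.

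Between 19 and 28 dpf, 3 of the 78 ESTs rose and 8 fell (14.1%, against 16.6% of all features, 8.1% higher and 8.51% lower). All were named above, the falls including emp24 proteins 2 and 4 (-0.66 ± 0.18 and -0.65 ± 0.21) and the Sec61 beta EST CA055988 (-0.76 ± 0.27). With loess within arrays as the only normalization, the median of all features moved to -0.54 between 15 and 28 dpf and to -0.61 between 19 and 28 dpf, and the calls became 1 rise and 36 falls, and 0 rises and 38 falls. Under it, 5 risers turned negative, namely CB497839 (-0.12), CA044589 (-0.10), CB497868 (-0.14), CB494336 (-0.02) and CB496749 (-0.07). Relative to that median, they were higher by 0.40 to 0.52, and every one of the 25 called ESTs kept its direction. Of the 12 risers, only emp24 protein 3 was still called as a rise with loess only. Without background subtraction 9 of the 25 calls were lost, namely those of CB511963 (-0.31), CB495063 (-0.30), CK990854 (0.44), CB499604 (-0.44), CB497868 (0.28), CA051933, CB494336, CA055988 (-0.42) and CB496749 (0.24). The call of emp24 protein 3 between 15 and 19 dpf was lost too (0.48). Between 19 and 28 dpf only 4 of the calls were kept. Among the 8 with the smallest p, the calls lost were those of CB511963 (-0.26), CA050939 (-0.35), CA042949 (-0.32), CA055736 (-0.35) and CB495063 (-0.27). The remaining losses were among CB496732, CA057552 and CA055988, which were not followed singly in this interval.

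The ESTs of cargo and tissue markers were counted over the same days, where 19.3% of all features rose and 18.6% fell. Of 39 tested collagen ESTs, the most abundant cargo of connective tissue cells, 25 rose and 0 fell from 15 to 28 dpf, and their mean level in an embryo went from 12.05 to 12.64 at 15 dpf to 12.80 to 13.37 at 28 dpf. Of 35 skeletal muscle ESTs 29 rose and 0 fell, of 45 lens crystallin ESTs 41 rose and 2 fell, of 38 pancreatic enzyme ESTs 13 rose and 2 fell, of 82 liver plasma protein ESTs 17 rose and 12 fell, and of 50 hemoglobin ESTs 3 rose and 18 fell. The mean muscle level was 11.06 to 11.59 at 15 dpf and 12.69 to 13.62 at 28 dpf, the lens level 9.89 to 11.82 and 12.48 to 13.49, and the red cell level 12.02 to 13.04 and 11.54 to 12.79. The part of tissue content in the changes of the secretory ESTs was not tested.

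Neighbouring steps of the pathway were read from 143 tested ESTs of 7 further lists. From 15 to 28 dpf 15 rose and 28 fell (30.1%, median difference -0.07), where 37.9% of all features were called (19.3% higher and 18.6% lower). The counts of each list are given as a description. The 19 translocon partners and N-glycosylation ESTs had 4 rises and 0 falls, among them the translocon-associated protein alpha EST CB492591 (0.82 ± 0.20) and both called ESTs of DAD1, a subunit of oligosaccharyltransferase (0.69 ± 0.19 and 1.13 ± 0.36). The other tested ESTs of translocon-associated protein alpha (-0.28 and -0.03) and of DAD1 (-0.27 and 0.06) were not called. The list of Golgi and tethering proteins had 7 falls and 0 rises of 20, with subunit 7 of the conserved oligomeric Golgi complex at -1.09 ± 0.25. SNAREs and fusion factors had 5 falls and 0 rises of 14. Identifier prefixes differed between these lists. The Golgi and tethering falls had CA identifiers apart from DN048175, and the translocon and N-glycosylation rises had CB identifiers apart from CA038085. Falls among the SNAREs and fusion factors had CA, CB and CK identifiers. The part of the prefixes in these counts was not tested. The lists of Rab proteins (2 rises and 7 falls of 27), clathrin coats and adaptors (3 and 4 of 19), folding enzymes (4 and 3 of 29) and cargo loading (2 and 2 of 15) held calls of both directions. SAR1a, the GTPase that starts the COPII coat, again had ESTs on both sides, with CA055371 at 1.82 ± 0.23 and CB499810 at -1.06 ± 0.40.

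The QTL genotypes did not separate any of these ESTs past the threshold. At each time point 0 of 78 were called by limma, as were 0 of 11439 features (0%), with 3, 2 and 4 of the 78 at an unadjusted p under 0.05 at 15, 19 and 28 dpf, where the shares among all features were 5.42%, 5.85% and 4.67%. All 78 differences between OSU/CW and OSU/OSU lay between -0.50 and 0.62. At 15 dpf, the smallest p values belonged to emp24 protein 2 (CA059629), ARF6 (CA054173) and signal peptidase subunit 2 (CA045221), with OSU/CW higher by 0.48 ± 0.14, 0.62 ± 0.21 and 0.43 ± 0.19 and adjusted p values of 0.767, 0.836 and 0.89. For CA059629, OSU/CW embryos were at 12.12 to 13.11 (median 12.51) and OSU/OSU embryos at 11.50 to 12.67 (median 12.03), so the genotypes overlapped.

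At 19 dpf, ARF-related protein 1, a GTPase of the trans-Golgi, came first. Its EST CA052189 was at 10.83 to 11.74 (median 11.57) in OSU/CW and at 11.54 to 12.23 (median 11.88) in OSU/OSU, a difference of -0.50 ± 0.17 (adjusted p = 0.757). Coatomer zeta-1 (CA055018) and Sec61 gamma (CA037834) followed, at 0.44 ± 0.20 and -0.35 ± 0.18, and without male replicate 19 they were at 0.29 and -0.10. At 28 dpf, the ARF1 EST CA058864 was at 11.64 to 12.60 (median 12.23) in OSU/CW and at 10.99 to 12.03 (median 11.89) in OSU/OSU, a difference of 0.45 ± 0.14 (adjusted p = 0.726). Coatomer zeta-2 (CB496435) and ARF4 (CB502405) differed by -0.40 ± 0.15 and 0.44 ± 0.17, the latter 0.24 without male replicate 23. No EST was among the first 3 at more than 1 time point.

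Between the sexes, with genotypes averaged, 1 of the 78 ESTs was called, and only at 28 dpf (1.28%, against 0.00874% of all features, since it was the only feature called at that age). It was the cornichon homolog 4 EST CA063234. The study's own list of large sex differences at 28 dpf, from these same arrays, already places this EST among the features higher in males. In yeast and flies, cornichon proteins help to load certain cargoes into COPII vesicles. At 28 dpf the female values were 9.33, 9.55 and 9.77 in OSU/CW and 8.73, 9.68 and 10.40 in OSU/OSU, and those of the males were 10.99, 11.02, 11.05 and 11.38 in OSU/CW and 11.18, 11.26, 11.28 and 11.34 in OSU/OSU. All 8 males were above all 6 females with a value. Females were lower by 1.61 on the log2 scale, as the difference was -1.61 ± 0.27 (adjusted p = 0.00506). The signal passed the controls in 8 of 8 males but in 2 of 6 females, with 0 of 3 in OSU/CW. Over array means, an exact two-sided permutation test gave p = 0.0286, the smallest that 3 female and 4 male arrays allow. The EST was picked from these same values and its sexes were already fully separated. This p was therefore fixed beforehand and is no separate support.

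The female values at 28 dpf rest on 3 arrays, because the spot was marked as poor on the array of the other 2 embryos. With poor spots kept, these 2 females were at 11.23 and 11.19, within the range of the males, and the difference was -1.20 with an adjusted p of 0.677 (exact permutation p = 0.114). The call was also lost without female replicate 36 (-1.34, adjusted p = 0.526), female replicate 38 (-1.64, adjusted p = 0.0692) or male replicate 37 (-1.55, adjusted p = 0.0552). Without background subtraction the difference was -0.64 (adjusted p = 1), and in a fit of the 28 dpf arrays alone -1.61 (adjusted p = 0.272). Signal over background at 28 dpf was 2.11 to 4.83 in females and 1.75 to 2.91 in males, and its part was not tested.

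At the earlier ages CA063234 leaned the other way. At 15 dpf females were at 10.06 to 12.33 (median 10.71) and males at 10.08 to 10.79 (median 10.20), and at 19 dpf at 10.50 to 11.14 (median 10.77) and 9.92 to 10.96 (median 10.43). The differences were 0.61 ± 0.25 (adjusted p = 0.746) and 0.31 ± 0.25 (adjusted p = 0.765). The sex difference itself differed between time points in the F test of the interaction of sex and time (adjusted p = 0.00584), the only such feature of 11439 (0.00874%), a call that was lost with poor spots kept (adjusted p = 0.413), without background subtraction (adjusted p = 0.522) and without female replicate 36 (adjusted p = 0.11) or 38 (adjusted p = 0.0525) of 28 dpf. Averaged over the sexes, its difference between 28 and 15 dpf was -0.21 ± 0.18.

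The second cornichon homolog 4 EST did not show this pattern. CA063964 was at 9.51 to 10.84 (median 10.16) in females and at 9.35 to 11.02 (median 10.39) in males at 28 dpf, and the groups overlapped. The sex difference was -0.12, with a 95% interval of -0.75 to 0.52. The signal passed the controls in only 5 of 16 embryos at 28 dpf, so a sex difference could be hidden near background. The difference between the cornichon ESTs was not tested. For CA063964 the change lay in time. It was at 10.72 to 12.82 (median 11.27) at 15 dpf, at 9.45 to 11.50 (median 10.75) at 19 dpf and at 9.35 to 11.02 (median 10.21) at 28 dpf, a fall of 1.23 ± 0.22 from 15 to 28 dpf (adjusted p = 3.54e-05). The 28 dpf end of this fall was near background, with 5 of 16 embryos above the controls against 10 of 16 at 15 dpf.

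**Figure D4:**
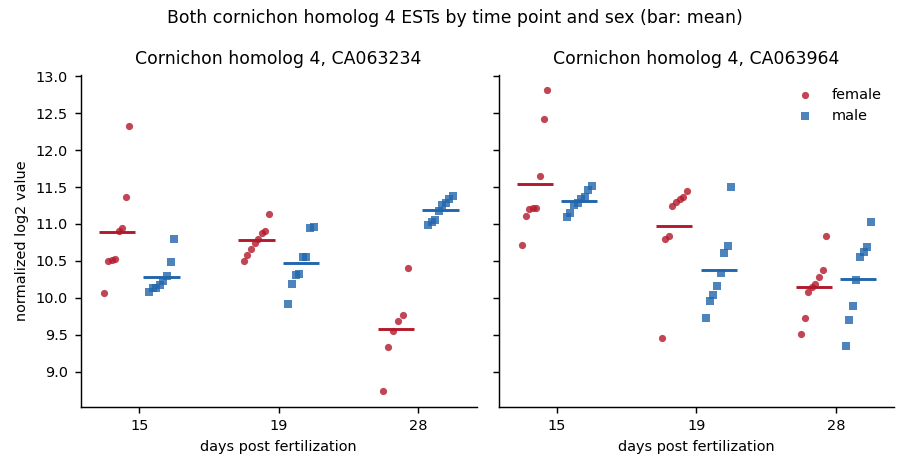
Normalized log2 values (y axis) of each embryo at 15, 19 and 28 dpf (x axis) for both ESTs described as cornichon homolog 4, females as red circles and males as blue squares with a bar at each mean. At 28 dpf the 6 females of CA063234 with a value lie at 8.73 to 10.40 and the 8 males at 10.99 to 11.38, whereas the sexes of CA063964 overlap. The other females of CA063234 at 28 dpf are not drawn because their spot was marked as poor. With poor spots kept they were at 11.23 and 11.19, within the range of the males.

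The rule of the study's methods (an overall F test at an FDR of 0.05, then an FDR of 0.2 over the p values of all 66 pairs of treatments) called 6 of the 78 ESTs in at least 1 of the 6 comparisons of the sexes (7.69%), against 9.44% of all features. CA063234 was called in both genotypes at 15 and at 28 dpf. At 15 dpf, females were higher by 0.69 ± 0.29 in OSU/CW and by 0.52 ± 0.29 in OSU/OSU, and in the latter 0 of 4 males and 1 of 4 females passed the controls. The moderated tests of these differences gave unadjusted p values of 0.0209 and 0.0741. Adjusted within each comparison, they were 0.645 and 0.999. Dye was unevenly split between the sexes within each genotype at this age, and without the dye term the differences were 0.56 and 0.66. Both calls were lost without female replicate 35, whose embryos were at 12.33 and 11.37 (0.26 and 0.32 without it), and the latter also without female replicate 13 (0.51) or male replicate 18 (0.45). At 28 dpf the differences were -1.51 ± 0.31 and -1.71 ± 0.31. The comparisons at 15 dpf called 2.75% and 1.98% of all features in OSU/CW and OSU/OSU (1.22% and 0.796% higher in females), and those at 28 dpf 1.13% and 1.2% (0.551% and 0.472% lower).

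At 19 dpf the rule called 5 ESTs in OSU/CW and 1 in OSU/OSU (5.29% and 2.76% of all features, with 3.02% and 1.49% higher and 2.26% and 1.28% lower in females). In OSU/CW, CA063964 was at 10.80 to 11.44 in 4 females and at 9.95 to 10.70 in 4 males, which did not overlap (0.94 ± 0.36). Females were also higher for coatomer zeta-1 (CB511963, 0.62 ± 0.33) and the 9 kDa protein (CA042949, 0.55 ± 0.29), and lower for emp24 protein 3 (CB496796, -0.66 ± 0.38) and Sec24C (CK991191, -0.59 ± 0.36). In OSU/OSU, Sec24C was the only call, at 9.67 to 10.58 in females and 10.19 to 11.50 in males (-0.70 ± 0.36). The overall F test of the rule spans all 12 treatments, age included, so that a change with age alone can admit an EST. Within each comparison their own adjusted p values were 0.376 to 0.877. The calls of Sec24C and zeta-1 in OSU/CW were lost without any of 13 and 12 arrays, and the calls in OSU/OSU, of emp24 protein 3 and of the 9 kDa protein without any of 3, 4 and 4.

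**Figure D5:**
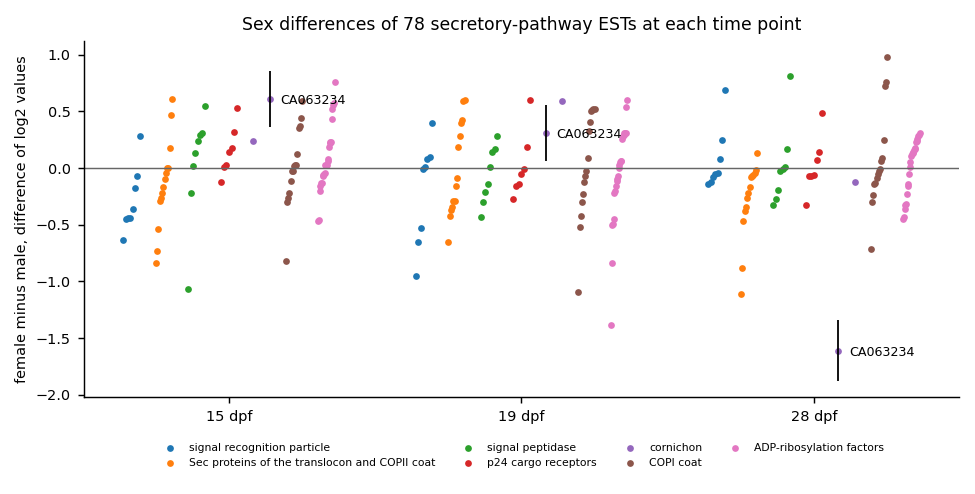
Female minus male difference (y axis, log2 scale) of the 78 tested ESTs at 15, 19 and 28 dpf (x axis), ordered by size within each family and coloured by family, with the standard error drawn for CA063234 alone. At 28 dpf CA063234 lies at -1.61, and the other 77 lie between -1.11 and 0.98.

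The coatomer alpha ESTs CB498091 and CA768033 gave sex differences that changed sign with age and passed no threshold here. The study's own list of large sex differences at 28 dpf, which holds CA063234 as higher in males, places CA768033 among the features higher in females. CB498091 was at 11.19 to 12.42 (median 11.44) in females and 11.37 to 12.06 (median 11.69) in males at 15 dpf, at 10.41 to 12.06 (median 10.85) and 11.47 to 12.82 (median 12.14) at 19 dpf, and at 11.57 to 12.67 (median 12.14) and 9.89 to 11.88 (median 11.66) at 28 dpf. The differences were 0.02 ± 0.37, -1.09 ± 0.42 and 0.72 ± 0.40, with adjusted p values of 0.998, 0.483 and 1. Only 2 male arrays had a value at 19 dpf, and at 28 dpf the difference was 0.43 without male replicate 23. CA768033 was at 9.42 to 12.86 (median 11.31) in females and 8.85 to 11.59 (median 10.72) in males at 28 dpf, with a difference of 0.98 ± 0.42 (adjusted p = 1), and of 0.48 without female replicate 38. At 15 and 19 dpf it differed by 0.59 ± 0.42 and -0.42 ± 0.45, the latter 0.05 without background subtraction.

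The remaining ESTs with the smallest p values between the sexes were not called either. At 15 dpf they were signal peptidase subunit 3 (CA059604) and ARF1 (CA041016). CA059604 was at 9.44 to 11.67 (median 10.28) in females and at 10.96 to 11.85 (median 11.53) in males, with signal above the controls in 0 of 6 females and 8 of 8 males, and the difference was -1.07 ± 0.35 (adjusted p = 0.668). At 19 dpf, ARF-like protein 8B (CA040122), which works at lysosomes, had -1.38 ± 0.46 and the 19 kDa protein (CB494336) -0.95 ± 0.38, with adjusted p values of 0.455 and 0.484. At 28 dpf the Sec61 beta EST CA055988 had -0.88 ± 0.38, and -0.23 without female replicate 36. CA041016 went from 0.76 to 0.26 without male replicate 41, and CA040122 to -0.83 without male replicate 19. With 3, 6 and 4 of the 78 at an unadjusted p under 0.05 at 15, 19 and 28 dpf, the shares among all features were 6.24%, 8.73% and 3.49%. No EST passed the test of sex with genotype at any time point or of genotype with time, and neither did any other feature.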

How the data were processed

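Total RNA of 48 single embryos was hybridized to two-colour cDNA arrays. The authors deposited, per channel, spot intensity and local background as scanned, unnormalized. They also deposited a table of 1 score per spot, a quotient of centred log signals, which served only to rebuild the centred log2 values as an alternative. Scanner software is not given in the sources used here. With limma 3.58.1 in R 4.3.3, the background was corrected by normexp (offset 50), and arrays were normalized by loess and Aquantile. Poor spots were left out, and ESTs of several spots averaged. Features above the 90th percentile of 1003 negative controls in at least 16 of 48 channels, and measured on 2 or more arrays per sex and age, were tested (11439). The model of the methods had 12 treatments and dye as fixed effects and array as random effect (correlation 0.532, 6.88 prior degrees of freedom), with moderated variances and exact least squares for missing values. Averaged contrasts and interactions used a Benjamini-Hochberg FDR of 0.05. The methods' rule needed the overall F test, passed by 1555 features.

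The embryos are separate individuals of the same repeated backcross. The number of arrays limits the precision. The code was tested on simulated data. Named were CB498091, CA768033, CA063234, the 25 ESTs with the smallest p among calls between 15 and 28 dpf, 8 for each other pair of ages, the 3 with the smallest p for sex and for genotype at each age, and all sex calls by the methods' rule. A few others were named after their values were seen, where a description or count needed them. The members, lists and alternatives were chosen with earlier results of these data known, and the identifier prefixes were compared after the values were seen. None of the 115 identifiers was found in the RefSeq table at hand, so no positions are given. Alternatives changed background correction, normalization, filter, poor spots, dye term, FDR and the arrays fitted. No quantitative PCR values were used.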

Additional observations from a re-analysis of the deposited data

Results flagged for a closer look

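The sex difference of the cornichon homolog 4 EST CA063234 differed between time points (adjusted p = 0.00584). In addition, 7 of 82 groups of 4 to 10 embryos examined had 1 embryo flagged as an outlier, where chance flags about 1 in 20 (5%). The ARF6 EST CA054173 was at 14.02 in 1 OSU/CW embryo of 15 dpf, with the others at 11.90 to 12.65. Coatomer zeta-1 (CA055018) was at 11.13 in 1 OSU/CW embryo of 19 dpf (others 9.53 to 10.19). The 19 kDa protein (CB494336) was at 9.06 in 1 male of 19 dpf (others 10.60 to 11.03). The ARF1 EST CA058864 was at 10.99 in 1 OSU/OSU embryo of 28 dpf (others 11.73 to 12.03). Among male OSU/CW embryos of 28 dpf, CA063234 was at 11.38 in 1, which was close to the others but outside their narrow range (10.99 to 11.05). Coatomer alpha CB498091 was at 9.89 in 1 male of 28 dpf (others 11.58 to 11.88), and CA768033 at 11.71 in 1 female OSU/CW embryo of 15 dpf (others 11.03 to 11.10). Array 23 carried both CA058864 and CB498091, and array 14 both CA054173 and CA768033.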

How the results depend on the processing

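The counts of called secretory ESTs moved with the processing, and the cause was not tested unless the construction shows it. Between 15 and 28 dpf the 25 calls became 18 to 37 under the alternatives that kept most features, and 1 when only features above the controls in all 48 channels were tested, which left 2 of these ESTs. Under that filter the calls for 15 to 19 dpf, 19 to 28 dpf, sex, the methods' rule and the interactions were all 0. The 1 call between 15 and 19 dpf became 0 without background subtraction or with loess only, 2 with rebuilt centred values, quantile normalization or poor spots kept, and 6 at an FDR of 0.2. The 11 calls between 19 and 28 dpf became 4 without background subtraction, 5 with rebuilt values, 38 with loess only and 20 at an FDR of 0.2. The sex call and the interaction became 0 without background subtraction and with poor spots kept, and the sex call also in fits of single time points. The 6 calls of the methods' rule became 3 without background subtraction or with rebuilt values, 10 with loess only, 1 at an FDR of 0.2 or 0.05 within each comparison and 13 without the overall test. The count for genotype stayed at 0 throughout.

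Each array left out in turn gave 19 to 26 calls between 15 and 28 dpf, 1 to 3 between 15 and 19 dpf, 6 to 11 between 19 and 28 dpf, 0 to 1 for sex and for the interactions, and 2 to 7 by the methods' rule, with the 2 without male replicate 22 of 19 dpf. The 6 calls between 19 and 28 dpf came without male replicate 23 of 28 dpf. Of the 34 named time calls, 23 were called without each array in turn and all 34 kept their direction.

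The share of rises among all called features between 15 and 28 dpf was 50.9%, and it was 72.5% with rebuilt values and 8.9% with loess only, where medians of all features were 0.33 and -0.54. With rebuilt values the secretory calls were 13 rises and 9 falls. With loess only, 5 called rises between 15 and 28 dpf changed sign, namely CB497839 (-0.12), CA044589 (-0.10), CB497868 (-0.14), CB494336 (-0.02) and CB496749 (-0.07). The other reversed signs concerned differences that were not called. Without background subtraction, CA055018 for genotype at 19 dpf became -0.01, CA768033 0.18 for 28 minus 15 dpf, 0.05 for sex at 19 dpf and 0.13 in OSU/CW alone, and CA063234 0.03 for 28 minus 15 dpf. For 28 minus 15 dpf, CA768033 became 0.05 with rebuilt values, and CB498091 -0.68 with loess only and 0 with quantile normalization. Its sex difference at 15 dpf became -0.04 with loess only and -0.09 with poor spots kept, and that in OSU/CW at 28 dpf 0 with loess only. Without single arrays, CB498091 ranged from -0.03 to 0.21 for 28 minus 15 dpf and from -0.18 to 0.18 for sex at 15 dpf, and CA768033 from -0.26 to 0.22 for 28 minus 15 dpf and from -0.05 to 1.06 for sex in OSU/OSU at 28 dpf. At 15 dpf CB499814 and CB496435 passed the controls in 1 and 2 of 16 embryos, so that side of their rises was measured near background. CB496796 passed them in 8 of 16 at that age. The genotypes were paired within arrays in every fit, through the array effect. Sexes and ages lay on different arrays and had no pairs.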
